A study of Mus musculus with 2 samples.

Results

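The 9 genes described here store iron, carry it across membranes or control those steps in the cell. They were chosen by symbol, as Fth1, Ftl1, Slc40a1, Slc11a1, Slc11a2, Tfrc, Aco1, Ireb2 and Ncoa4, and each symbol matched 1 of the 55536 genes in the deposited tables. The tables come from ribosome-depleted RNA of the nuclear fraction of bone-marrow-derived macrophages (BMDM), primary cells grown from C57BL/6J mouse marrow. All cells were given Lipid A, the TLR4-activating part of bacterial lipopolysaccharide, at 100 ng/ml for 12 h, then went through 12 h of washout, and were given Lipid A at 100 ng/ml once more for 10 min before RNA was taken. This was the only condition, with 1 library each for biological replicates 1 and 2, made from 1 µg and 500 ng of nucleic acid under 1 donor identifier. Whether they came from separate cultures or animals is not said, so their spread may be technical in part, and untreated cells were not analysed here.

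Cells take up transferrin-bound iron through the transferrin receptor Tfrc, move it out of endosomes through divalent metal transporters such as Slc11a2, store it in shells of ferritin heavy and light chains (Fth1 and Ftl1), and release it through ferroportin (Slc40a1). Macrophages recycle the iron of aged red cells, and in inflammation they hold iron back from microbes. When iron is scarce, the 2 iron regulatory proteins, encoded by Aco1 and Ireb2, bind a hairpin called the iron-responsive element (IRE). Bound near the 5′ end of an mRNA such as ferritin's, they block translation, and bound in the 3′ UTR of Tfrc mRNA they protect it from decay. The libraries measure nuclear RNA, and neither iron, protein nor binding was measured.

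The IRE sequences of these genes were read from the GENCODE M21 transcripts (mm10), because the iron regulatory proteins bind this element. The search took a C, any 5 bases, the loop CAGTGN with its last base other than G, and 5 bases that pair with the first 5 (G-U pairs allowed), on the transcript's strand only. Of 21951 protein-coding genes, 272 (1.24%) held such a match in at least 1 transcript. Among the 9 iron genes 4 did: Fth1, Ftl1, Slc40a1 and Tfrc. Allowing 1 unpaired base in the 3′ arm, an alternative added after seeing the data, raised the share of genes to 4.25% and added Slc11a2. Under that rule all 8 mRNAs listed as known carriers matched, against 6 under the stricter one. A match is a description of letters and not a measured site. Capitals mark the loop in the lines that follow, each of which runs 5′ to 3′ and gives the position, the strand and the part of the transcript.
Fth1, chr19:9982732-9982760, plus strand, 5′ UTR: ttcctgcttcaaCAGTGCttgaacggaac
Ftl1, chr7:45459779-45459807, minus strand, 5′ UTR: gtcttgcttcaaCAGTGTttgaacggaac
Slc40a1, chr1:45925465-45925493, minus strand, 5′ UTR: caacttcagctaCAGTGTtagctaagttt
Slc11a2, chr15:100395152-100395181, minus strand, 3′ UTR of Slc11a2-205, 1 unpaired base: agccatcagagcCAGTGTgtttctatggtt
Tfrc, chr16:32631219-32631247, plus strand, 3′ UTR: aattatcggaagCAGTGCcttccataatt
Tfrc, chr16:32631598-32631626, plus strand, 3′ UTR: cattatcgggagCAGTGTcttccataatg
Tfrc, chr16:32631663-32631691, plus strand, 3′ UTR: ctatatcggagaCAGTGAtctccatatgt
Tfrc, chr16:32631710-32631738, plus strand, 3′ UTR: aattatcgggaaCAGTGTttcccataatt

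The matches lay before the coding sequence in the storage and export genes and after it in the uptake genes. In the 2 ferritins and in ferroportin the loop began 126, 164 and 218 bases before the start codon of Fth1-201, Ftl1-201 and Slc40a1-201, respectively. In Tfrc-201 the 4 loops began 898, 1277, 1342 and 1389 bases after the last coding base, all in exon 19 of 19. In Slc11a2-205 the loop began 47 bases after the coding sequence, in exon 16 of 16. The other main coding transcript of the transporter, Slc11a2-201, held no match, and neither did any transcript of Slc11a1, Aco1, Ireb2 or Ncoa4. A match with 1 unpaired base was also found in the noncoding transcript Slc40a1-204, which held 3.48% of the gene's TPM (a level per transcript length, scaled within each library) in replicate 1 and 0.41% in replicate 2.

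**Figure D1:**
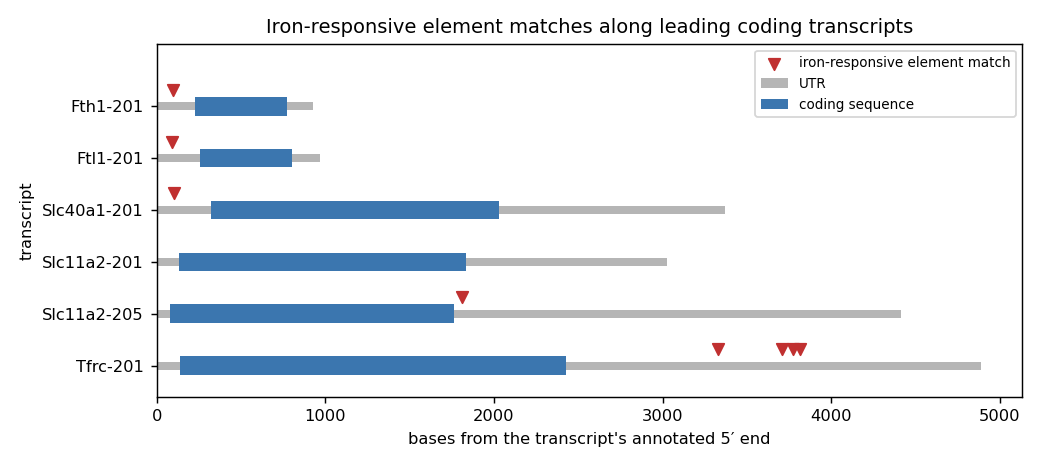
Positions of the matches (red triangles) along 6 coding transcripts of 5 iron genes, in bases from the annotated 5′ end, with UTRs in grey and coding sequence in blue. Matches lie before the coding sequence in Fth1-201, Ftl1-201 and Slc40a1-201 and after it in Slc11a2-205 and Tfrc-201, and Slc11a2-201 has none.

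Most of the RNA of the 4 strict carriers was assigned to transcripts that hold the match. Those transcripts took 90.1% of Fth1 TPM in replicate 1 and 83.2% in replicate 2, 92.2% and 88.9% of Ftl1 TPM, 96.5% and 99.6% of Slc40a1 TPM, and 79.7% and 86.3% of Tfrc TPM. For Slc11a2 the share was 36.6% and 42.5%. In the second deposited quantification, made directly from the reads, the shares were lower for each gene, at 89.7% and 79.4% for Fth1, 84.1% and 77.6% for Ftl1, 51.8% and 76.9% for Slc40a1, 51.0% and 75.3% for Tfrc, and 21.9% and 33.1% for Slc11a2. For Slc40a1 and Tfrc the 2 quantifications thus differed most in replicate 1.

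Expected counts on genes, the authors' estimated numbers of reads, summed to 24444219 in replicate 1 and 18051097 in replicate 2. All 10 listed macrophage markers were detected in both libraries, with a summed TPM of 2686 and 2534, while none of the 9 erythroid markers found in the tables, the 9 neutrophil and the 5 hepatocyte markers was. The summed TPM of the erythroid markers, those of the cells whose iron macrophages recycle, was 0.32 and 0.68, and Hbb-bs and Hbb-bt had 0 counts in both. At a mean count of 50 or more, 477 of 11761 genes (4.06%) differed by more than 2-fold between the libraries. Replicate 2 was the higher one for 124 of them (1.05% of the genes) and the lower one for 353. The 10 macrophage markers all had log2 ratios below 0, with a median of −0.41, and Fcgr1 was past 2-fold lower in replicate 2 (log2 ratio −1.14). Their part in the ratios of the iron genes was not tested.

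All 9 iron genes were detected in both libraries, with 1 TPM or more and 10 or more expected counts, as were 42.9% of protein-coding genes. The median of their mean TPM was 52.2, and the median over the 9 genes was 38.03 in replicate 1 and 57.67 in replicate 2, against a median mean TPM of 7.99 over the 9443 detected protein-coding genes. The levels spanned from 6.35 TPM for Aco1 to 1591 TPM for Fth1. By mean TPM the order was Fth1, Ftl1, Slc11a1, Tfrc, Ncoa4, Slc11a2, Slc40a1, Ireb2 and Aco1. Neighbours whose 2 libraries overlapped were Tfrc and Ncoa4, Slc11a2 and Slc40a1, and Slc40a1 and Ireb2, and Tfrc and Ncoa4 changed places between the libraries. Slc11a1 and Tfrc were separated only by 88.25 against 88.24 TPM, so their order is not clear of the spread either. TPM is scaled over all targets, including short nuclear RNAs, so it was used here for levels between genes, while the libraries were compared on counts. RNA was taken in bulk from the nuclear fraction, so fewer cells of a type and less nuclear RNA per cell cannot be told apart.

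**Figure D2:**
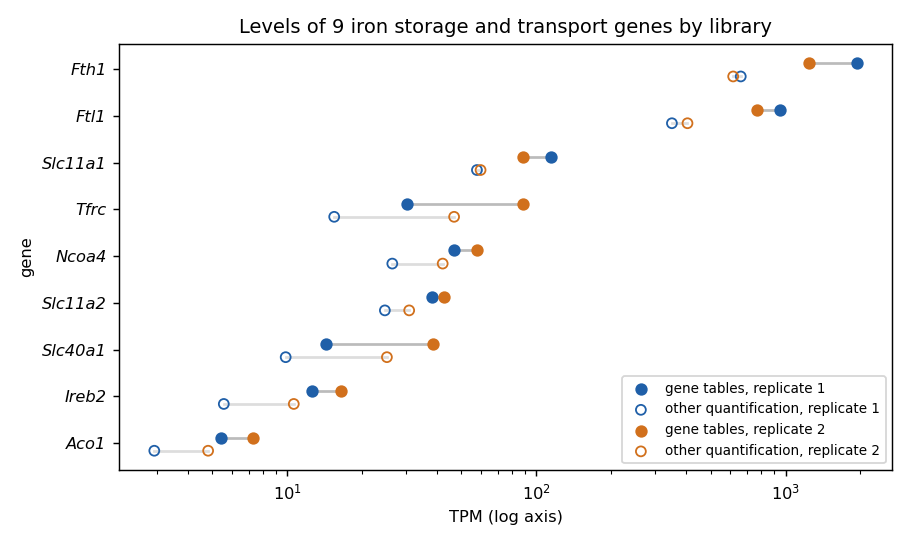
TPM of the 9 iron genes on a log axis in replicate 1 (blue) and replicate 2 (orange), with filled points for the gene tables and open points for the other quantification. Fth1 and Ftl1 lie above the other 7 genes in both libraries and both quantifications, and the gap between libraries is widest for Tfrc and Slc40a1.

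Ferritin led the group. Fth1 (ENSMUSG00000024661.7, chromosome 19, 9980598 to 9985098, plus strand) encodes the heavy chain, which oxidises iron for storage. It had expected counts of 60325 in replicate 1 and 27631 in replicate 2 and a TPM of 1942 and 1239 (1591 ± 497, SD, n = 2), and ranked 8 among the 9443 detected protein-coding genes. Ftl1 (ENSMUSG00000050708.16, chromosome 7, 45457944 to 45459884, minus strand) encodes the light chain, which aids the formation of the iron core. Its counts were 27567 and 15277 and its TPM 947.4 and 768.2 (858 ± 127), with rank 19. In the other quantification the TPM was 661 and 616 for Fth1 and 350 and 404 for Ftl1, lower than in the main tables, and on that scale Ftl1 had the higher value in replicate 2. The 2 genes together held 0.360% of all gene counts in replicate 1 and 0.238% in replicate 2. Of the counts of the 9 iron genes they held 79.2% and 62.8%.

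Both ferritin genes were lower in replicate 2 by less than 2-fold. Counts were normalised by TMM, a scaling that takes most genes as equal between libraries, and the log2 ratio of replicate 2 to replicate 1 was −0.85 for Fth1 (95% counting interval −0.87 to −0.83), a 1.81-fold lower value, and 519 of the 11761 genes had a lower ratio. For Ftl1 it was −0.58 (−0.61 to −0.55), or 1.49-fold lower. When protein-coding genes are split by length into 10 classes, both fall in the shortest, whose median ratio was −0.24, and relative to that class the ratios were −0.61 for Fth1 and −0.33 for Ftl1. The heavy-chain RNA exceeded the light-chain RNA in both libraries, by 2.05-fold in TPM in replicate 1 and 1.61-fold in replicate 2. In the other quantification the excess was 1.89-fold and 1.53-fold. Counts of Ftl1 carry an uncertainty from shared sequence, since 12 annotated genes share at least 20% of their 31-base words with it. They held counts equal to 0.939% and 2.08% of those of Ftl1, most on Ftl1-ps1 (252 and 307 counts). The short microRNA genes among them had 0 counts, and 1 of those, Gm22133, overlaps Ftl1 itself on the same strand. The gene also overlaps Gm10252 on the opposite strand over 416 bases (130 and 40 counts), and whether the libraries keep strand is not given in the sources used here.

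Ferroportin RNA differed most between the libraries after Tfrc. Slc40a1 (ENSMUSG00000025993.10, chromosome 1, 45908068 to 45926523, minus strand) encodes the iron exporter of the cell surface that the liver hormone hepcidin removes. It had 1771 counts in replicate 1 and 3420 in replicate 2, and a TPM of 14.35 and 38.49 (26.4 ± 17.1, SD, n = 2). Its rank among detected protein-coding genes was 2711 in replicate 1 and 930 in replicate 2. Replicate 2 was 2.34-fold higher in normalised counts, a log2 ratio of 1.22 (1.14 to 1.31), with 61 of 11761 genes above it.

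The 2 transporters of the Slc11 family differed in gene TPM, and each differed by less than 2-fold between the libraries. Slc11a1 (ENSMUSG00000026177.11, chromosome 1, 74375195 to 74386062, plus strand), also called Nramp1, pumps divalent metals out of the phagosome of macrophages, and C57BL/6 mice carry an allele of it with lost function. It had 5237 and 3283 counts and a TPM of 114.25 and 88.25 (101 ± 18.4). The log2 ratio of Slc11a1 was −0.40 (−0.46 to −0.34), and 1986 of the 11761 genes had a lower one. Slc11a2 (ENSMUSG00000023030.16, chromosome 15, 100387898 to 100425072, minus strand), also called DMT1, carries ferrous iron from the endosome to the cytosol. Its counts were 4294 and 3451 and its TPM 38.03 and 42.64 (40.3 ± 3.26), with a log2 ratio of −0.04 (−0.11 to 0.02). Slc11a1 exceeded Slc11a2 by 3.004-fold in TPM in replicate 1 and 2.07-fold in replicate 2. This excess is that of all transcripts of each gene. Coding transcripts held 38.3% and 42.9% of Slc11a1 TPM, against 88.2% and 91.8% of Slc11a2 TPM. On coding transcripts alone the excess is smaller in replicate 1 and does not hold in replicate 2. Slc11a2 overlaps Gm5475 on the opposite strand over 2926 bases, and Gm5475 had 137 and 37 counts. A further 4 annotated genes share at least 20% of their 31-base words with Slc11a2. They had 0 counts in the main tables but 354 and 1491 in the other quantification, equal to 6.24% and 26.6% of its counts for Slc11a2.

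Tfrc had the largest ratio of the 9 genes. The gene (ENSMUSG00000022797.16, chromosome 16, 32608920 to 32632794, plus strand) encodes the receptor that takes up transferrin. Its counts were 4183 in replicate 1 and 8617 in replicate 2 although replicate 1 had the deeper library, and its TPM was 30.31 and 88.24 (59.3 ± 41.0, SD, n = 2). The rank among detected protein-coding genes was 1155 in replicate 1 and 298 in replicate 2. Replicate 2 was 2.49-fold higher in normalised counts, a log2 ratio of 1.32 (1.26 to 1.37), and 42 of 11761 genes had a higher ratio. Ferritin RNA was thus lower in the library where Tfrc RNA was higher. Fth1 exceeded Tfrc by 64.1-fold in TPM in replicate 1 and 14.0-fold in replicate 2. The same quotient was 42.9 and 13.2 in the other quantification. In the main tables ferroportin and Tfrc kept a like proportion, with a Slc40a1 to Tfrc quotient of 0.473 in replicate 1 and 0.436 in replicate 2. In the other quantification that quotient was higher and less even, at 0.639 and 0.537.

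The regulators had the lowest mean levels of the 9 genes. Aco1 (ENSMUSG00000028405.9, chromosome 4, 40143081 to 40198338, plus strand) encodes iron regulatory protein 1, which acts as an aconitase when it holds an iron-sulfur cluster. It had 658 and 634 counts and a TPM of 5.43 and 7.27 (6.35 ± 1.30), with a log2 ratio of 0.22 (0.06 to 0.38). Ireb2 (ENSMUSG00000032293.8, chromosome 9, 54863789 to 54912530, plus strand) encodes iron regulatory protein 2, which is degraded when iron is plentiful. Its counts were 2567 and 2360 and its TPM 12.57 and 16.49 (14.5 ± 2.77), with a log2 ratio of 0.15 (0.07 to 0.23). Ireb2 exceeded Aco1 by 2.31-fold in TPM in replicate 1 and 2.27-fold in replicate 2.

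Ncoa4 was the gene with the smallest difference in TMM-normalised counts. It (ENSMUSG00000056234.15, chromosome 14, 32159865 to 32179855, plus strand) encodes the receptor that delivers ferritin to the lysosome, where its iron is freed. Its counts were 4388 and 3640 and its TPM 46.66 and 57.67 (52.2 ± 7.79), with a log2 ratio of 0.00 (−0.06 to 0.07). Without TMM scaling the log2 ratio of Ncoa4 was 0.17, against 0.12 for Slc11a2, and as a ratio of TPM it was 0.31 against 0.17. Fth1 RNA exceeded that of Ncoa4 by 41.6-fold in TPM in replicate 1 and 21.5-fold in replicate 2. A processed pseudogene, Gm6768, shares 96.6% of its 31-base words with Ncoa4 and was given 45.0 and 55.9 counts.

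Across the 9 genes, 2 were more than 2-fold higher in replicate 2 (1.05% of all genes tested) and 0 more than 2-fold lower (353 of 11761 genes), 5 ratios lay above 0 and 4 below, and the median log2 ratio was 0.00. Over all 11761 genes the median was 0.00 as well, with 5930 above 0 and 5831 below. The 2 genes past 2-fold, Tfrc and Slc40a1, lay past it under each of 8 other settings, from 1.25 to 1.54 for Tfrc and from 1.11 to 1.42 for Slc40a1. Fth1 stayed between −0.89 and −0.61, Ftl1 between −0.59 and −0.30 and Slc11a1 between −0.61 and −0.24. The sign of Ncoa4 (−0.03 to 0.31) and of Slc11a2 (−0.09 to 0.17) depended on the scaling. With 1 library on each side there is no test, and the intervals cover counting error only. edgeR put the common biological coefficient of variation of these 2 libraries at 0.225.

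**Figure D3:**
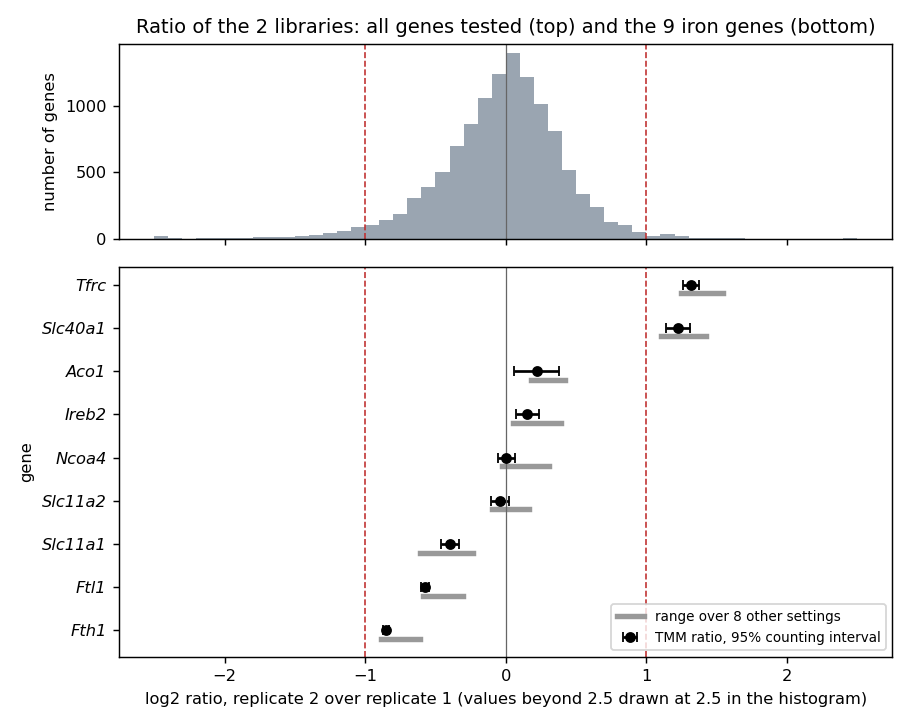
Normalised counts of replicate 2 over those of replicate 1, as log2 ratios, for all 11761 genes as a histogram (top) and for the 9 iron genes (bottom), with 95% counting intervals in black, the range over 8 other settings in grey and 2-fold marked by dashed lines. Tfrc and Slc40a1 lie past 2-fold with their whole ranges, and Fth1 and Ftl1 lie below 0 without reaching it.

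The transcripts behind these values were then compared, since nuclear RNA holds unspliced and partly spliced forms. GENCODE marks transcripts that keep an intron as retained-intron transcripts. They held 44.8% of Tfrc TPM in replicate 1 and 55.4% in replicate 2, the highest share of the 8 genes that have such a transcript in these tables. Slc40a1 followed with 34.8% and 30.3%. The shares were 17.2% and 26.8% for Fth1, 7.81% and 11.1% for Ftl1, 20.4% and 27.6% for Slc11a1, 22.2% and 21.4% for Ireb2, 9.88% and 7.84% for Ncoa4 and 1.88% and 4.18% for Slc11a2. Aco1 has no transcript of this class. Over 5978 genes with both classes the median share was 26.4% and 27.1%, and of the 8 iron genes 2, Tfrc and Slc40a1, had a mean share above the median over genes. In the other quantification the share was 21.5% and 39.0% for Tfrc, 20.0% and 24.8% for Slc40a1, and 25.5% and 27.6% for Slc11a1. It was 17.7% and 28.5% for Fth1, 15.8% and 22.4% for Ftl1, and 18.8% and 18.4% for Ireb2. For Ncoa4 it was 6.69% and 6.19%, and for Slc11a2 5.46% and 6.08%. Slc11a1 was thus above Tfrc in replicate 1 there, and Fth1 and Slc11a1 were above Slc40a1 in replicate 2. By percent of expected counts in place of TPM, Slc40a1 had the highest share in replicate 1, with 37.1% against 25.8% for Tfrc and 24.8% for Fth1. In replicate 2 Tfrc had 40.8%, Fth1 36.2% and Slc40a1 31.8%. Which gene leads thus depends on the measure.

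**Figure D4:**
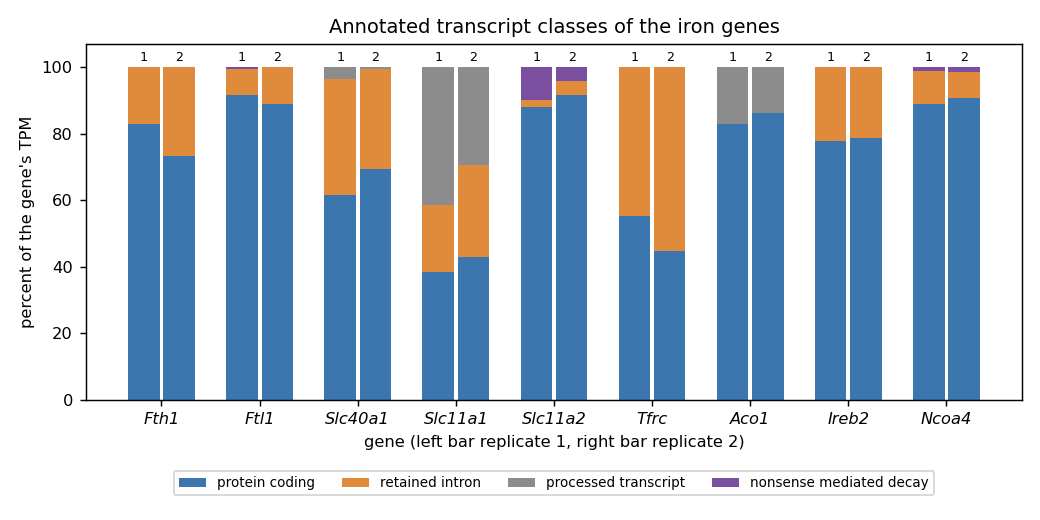
Percent of each iron gene's TPM on transcripts of 4 annotated classes, with replicate 1 as the left bar and replicate 2 as the right bar of each pair. The retained-intron part (orange) is larger in Tfrc, at 44.8% and 55.4%, than in the other genes, and the processed-transcript part (grey) is largest in Slc11a1, at 41.3% and 29.5%.

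For Tfrc the higher level in replicate 2 was uneven over its transcripts. The coding transcript Tfrc-201 (4890 bases, 19 exons) had 3105 and 5099 counts, a log2 ratio of 0.99. Tfrc-204, a retained-intron transcript of 3527 bases, had 972 and 3372 counts, a log2 ratio of 2.07 or 4.19-fold, and took 24.4% and 41.7% of the gene's TPM. Both carry the 4 IRE matches printed above, and 90.8% of the bases of Tfrc-204 lie in exons of Tfrc-201, which leaves 326 bases to tell it apart. The SD from assigning reads was 67.2 and 81.1 counts for Tfrc-204. The other quantification gave it fewer reads, 297 and 2726 counts, and 4.62% and 23.1% of the TPM. Tfrc-205, a short retained-intron transcript, took 10.6% and 6.36%.

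For Fth1 the coding form carried the lower level of replicate 2. Fth1-201 (929 bases) had 45294 and 17588 counts, a log2 ratio of −1.09 or 2.13-fold lower. Its share of the gene's TPM was 82.5% in replicate 1 and 72.3% in replicate 2. The retained-intron transcript Fth1-208 holds the same IRE match, and 865 of its 2062 bases lie in exons of Fth1-201. It had 10464 and 6819 counts, a log2 ratio of −0.34, and 7.36% and 10.8% of the TPM. Ftl1-201 held 91.7% and 88.9% of Ftl1, with a log2 ratio of −0.60.

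Set against each other, retained-intron and coding counts diverged most in Tfrc and Fth1. The log2 ratio of all retained-intron transcripts minus that of all coding transcripts was 0.99 for Tfrc (1.98 against 0.99) and 0.78 for Fth1 (−0.31 against −1.09). Of 3662 genes with enough counts in both classes, 148 (4.04%) had a larger difference than Tfrc and 294 (8.03%) a larger one than Fth1. The median over those genes was 0.07, with quartiles of −0.22 and 0.37. The difference was 0.44 for Ftl1, 0.13 for Slc11a1, 0.04 for Ncoa4 and −0.07 for Ireb2. Slc40a1 went the other way at −0.35 (1.00 against 1.35), with the larger ratio in the coding form. Of the 7 iron genes in this comparison 5 lay above 0, against 56.9% of genes.

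**Figure D5:**
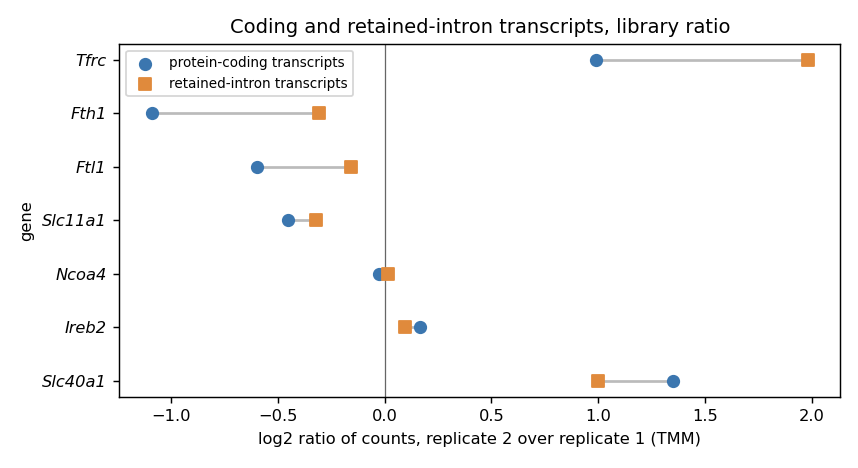
The log2 ratio of counts, replicate 2 over replicate 1, for protein-coding transcripts (blue circles) and retained-intron transcripts (orange squares) of 7 iron genes. The retained-intron value is the higher one by 0.99 in Tfrc and 0.78 in Fth1 and the lower one in Slc40a1, and both values lie near 0 for Ncoa4 and Ireb2.

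The other genes split their RNA as follows. Slc40a1-201, the coding form of ferroportin, held 61.7% and 69.3% of the TPM and a log2 ratio of 1.35, and the retained-intron transcripts Slc40a1-208 and Slc40a1-202 held 22.7% and 21.1%, and 12.1% and 9.12%. The other quantification instead put 42.6% of Slc40a1 TPM in replicate 1 on Slc40a1-207, a short noncoding transcript of 263 bases with 0 counts in the main tables. Slc11a1-201, the coding form, held 37.4% and 42.0% of the gene's TPM but 68.0% and 65.5% of its counts. Much of the rest of the TPM lay on short noncoding transcripts, and Slc11a1-206, of 378 bases, held 33.3% and 14.2% of the TPM on 248 and 55 counts. Slc11a1-202 held 12.5% and 17.7%, and Slc11a1-207 held 6.55% and 15.2%.

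In Slc11a2 the 2 leading coding transcripts differed in whether they hold an IRE match. Slc11a2-205, with the match, had 2321 counts in replicate 1 and 2106 in replicate 2, a log2 ratio of 0.13 (0.05 to 0.22). Slc11a2-201, without it, had 1877 and 1246 counts, a log2 ratio of −0.32 (−0.42 to −0.21). The counting intervals of the 2 transcripts did not overlap. These intervals leave out error in assigning reads and other variation between libraries, so a difference between the transcripts was not tested. The order of the 2 by TPM turned, with 44.3% and 37.6% of the gene's TPM on Slc11a2-201 against 36.6% and 42.5% on Slc11a2-205. The SD from assigning reads was 26.5 and 23.8 counts for Slc11a2-201 and 25.6 and 24.4 for Slc11a2-205. The other quantification, which also gave reads to the 4 genes that share sequence with Slc11a2, gave 2851 and 3266 counts to Slc11a2-205 and 2374 and 2019 to Slc11a2-201. By counts, Slc11a2-205 held the larger share in both libraries, at 54.1% and 61.0%. Shorter transcripts were named at small counts: Slc11a2-203 took 7.28% and 11.0% of the TPM, and Slc11a2-204 took 9.93% and 4.02% on 26.8 and 8.23 counts. In the other quantification Slc11a2-204 led in replicate 1, at 31.4%.

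The regulators and the ferritin receptor had the same leading transcript in both libraries of the main tables. Aco1-201 held 82.8% and 86.3% of Aco1 TPM, and Aco1-203, a noncoding transcript, 8.37% and 12.3% on 3.52 and 4.69 counts. Ireb2-201 held 77.8% and 78.6% of Ireb2 TPM and the retained-intron transcript Ireb2-202 the remaining 22.2% and 21.4%. Ncoa4-201 held 50.2% and 48.0% of Ncoa4 TPM. Ncoa4-203, a coding transcript of 462 bases, took 25.0% and 30.5% on 114 and 118 counts, and Ncoa4-202 took 11.0% and 9.37%.

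A wider list of 72 genes of iron and haem handling gave the surroundings of the 9. Of these, 49 were detected, beside 42.9% of protein-coding genes. Ratios were taken for the 50 with a mean count of at least 50, of which 25 lay above 0 and 25 below, with a median of 0.00. None was more than 2-fold higher and 1 was more than 2-fold lower in replicate 2, beside 4.06% of all 11761 genes past 2-fold in either direction. That gene was Lcn2, which encodes a protein that binds bacterial iron carriers, with 239 and 47 counts, a TPM of 8.65 and 2.63 and a log2 ratio of −2.06 (−2.56 to −1.62). 

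Of the 12 genes of uptake, reduction and release, 5 were detected. The highest were Mcoln1, a lysosomal channel that passes iron (TPM 31.64 and 45.85), Trf, transferrin itself (42.13 and 28.58), and Steap3, an endosomal iron reductase (4.14 and 7.51). The second transferrin receptor Tfr2 and the reductases Steap1, Steap2 and Steap4 had 0 counts in both libraries of the main tables, where 3 counts, the limit that 0 allows, correspond to 0.123 and 0.166 CPM in replicates 1 and 2. The other quantification also gave 0 counts to Steap1 and Steap4, but 89.8 and 119 to Steap2 and 25.0 and 45.4 to Tfr2, so the 0 of those 2 genes depends on the quantification. Cybrd1 and Slc39a8 were not detected either. Among the 9 genes of the ferroxidases and the hepcidin axis 2 were detected, Cp, the ferroxidase ceruloplasmin (61.95 and 38.16), and Hfe, a partner of the transferrin receptors (8.77 and 8.96). Heph, Hephl1, Hamp and Hamp2 had 0 counts in both libraries of the main tables, Hjv had 0 and 1, and Bmp6 was not detected. Hamp2 had 1 and 2 counts in the other quantification.

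Handling of stored iron was better covered. Of 6 chaperones and turnover genes 5 were detected, led by the iron chaperone Pcbp2 (TPM 56.13 and 68.78), the autophagy receptor Tax1bp1 (27.19 and 30.95) and Pcbp1 (19.08 and 14.25). Mitochondrial ferritin, Ftmt, had 0 counts. Of 4 transcriptional regulators 3 were detected: Nfe2l2 (44.02 and 48.34), which encodes the antioxidant factor NRF2, Bach1 (27.4 and 26.24), a haem-sensing repressor, and Hif1a (9.8 and 10.98). Epas1, which held an IRE match with 1 unpaired base, was not detected at 0.07 and 0.16.

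Haem genes were mostly present at lower levels than ferritin. Of 11 genes of haem uptake, breakdown and export 7 were detected, led by Lrp1, a receptor that takes up haem bound to hemopexin (TPM 203.87 and 257.27), Hmox1, the inducible haem oxygenase (27.58 and 26.87), and the haem exporter Flvcr1 (19.44 and 30.49). Cd163, Slc46a1, Flvcr2 and Abcg2 were not detected. In haem synthesis 8 of 9 were detected, led by the first enzyme Alas1 (19.88 and 19.85), Ppox (11.72 and 18.14) and Fech, which inserts the iron (6.78 and 9.57), and Alad was not, at 1.19 and 0.44. Of 21 genes of mitochondrial iron and iron-sulfur clusters 19 were detected, led by the chaperone Hspa9 (39.31 and 61.62) and the iron importers Slc25a37 (34.41 and 36.49) and Slc25a28 (20.57 and 17.96). Lyrm4 was not detected, at 0.8 and 1.47. By mean TPM the 2 ferritin genes stood above every gene of the wider list, whose highest was Lrp1 at 231.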

How the data were processed

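RNA of the nuclear fraction was measured in 2 libraries of 1 group. Per the file headers, the deposited gene and transcript tables hold an expected count, the authors' estimated number of reads, a TPM, the SD of the count from assigning reads, and for transcripts the percent of the gene's TPM. Per the deposited file descriptions, they derive from an alignment to the transcriptome (mm10, GENCODE M21), and the second transcript tables, with estimated counts and TPM, from reads and an index. The sources used here do not give aligner, quantifier, versions or strandedness. Entries that name no gene (1.06% and 0.245% of counts) were left out. Symbols and positions came from GENCODE M21, and all 72 wider genes matched, Hjv through an older symbol. Expected counts were rounded and TMM factors (0.945 and 1.06) computed at a mean count of 10 or more with edgeR 4.0.16 in R 4.3.3. Ratios had 0.5 added to each count, and their 95% counting intervals are exact binomial. DESeq2 1.42.0 size factors were an alternative. Python 3.11.15 with pandas 2.3.3 and scipy 1.17.1 did the rest. The ratio step was tested on simulated data.

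The iron genes and the wider list were chosen with earlier results of these data known. All 9 are named, as is a transcript with at least 10% of its gene's TPM in either library or leading its gene in either table. Of each part of the wider list, the 3 highest detected genes, up to 6 undetected ones and those past 2-fold are named, and 1 undetected gene is not reported here. Alternatives were other detection limits, scalings, the other quantification, protein-coding TPM and each library alone. A planned comparison of protein sequences was not run.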

Additional observations from a re-analysis of the deposited data

How the results depend on the processing

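No paired analysis was possible because both libraries belong to 1 group. All 9 iron genes were detected under the other limits run, except that 8 were at a TPM of at least 10, and 2 were past 2-fold under all 8 settings for the ratio. A TPM limit of 5 left 30 of 72 wider genes detected. The median TPM of the iron genes was 31.1 in the other quantification, 246 with TPM rescaled to protein-coding genes, and from 38.03 to 57.67 when leaving out 1 library. Of the single genes, Fth1 moved from 1591 to 639 TPM and Ftl1 from 858 to 377 in the other quantification. In all, 16 of the levels of single genes and 19 of the transcript shares moved by more than the SD of the libraries. Another 20 and 40 did not, but these include every value from leaving out 1 library. Such a value cannot move by this measure, since each library of a pair lies within the SD of their mean. Of the levels that could move, only those of Slc40a1 and Tfrc in the other quantification did not. Scaling by CPM without TMM moved the median ratio of all genes to 0.17, that of the iron genes to 0.17 and that of the wider genes to 0.16. Ratios of TPM moved these to 0.24, 0.31 and 0.19, with 2 wider genes past 2-fold. No sign of a called ratio reversed. The cause of these shifts was not tested. Of 72 ratios of single iron genes under these settings, 45 stayed within the counting interval of the value reported. The iron genes had 634 or more counts in each library, but several of their transcripts had few, down to 3.52 and 4.69 for Aco1-203, and each ratio has 1 library on each side.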
